A study of Mus musculus with 6 samples.

Results

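The genes of the ATF4 stress response and of serine and one-carbon metabolism followed here in sorted mouse muscle stem cells are Atf4, Ddit3, Asns, Phgdh, Psat1, Psph, Shmt1, Shmt2, Mthfd2 and Mat2a, taken by symbol, and all 10 were among the 12067 genes of the deposited table. The cells came from limb muscles of male C57BL/6 mice and were sorted by the presence of VCAM and the absence of CD31, CD45 and Sca1. The sorted cells carried 5 uM ThiolTracker Violet, a dye for reduced glutathione (GSH). The young group (4 months) holds all cells, nearly all of them GSH-high per the labels, with 1 animal per library. The old group (23 months) was divided into a GSH-high and a GSH-low fraction, with 2 animals pooled per library. Each of the 3 groups has 2 libraries. The labels do not say whether GSH-high and GSH-low libraries came from the same animals, and p-values measure only the spread between these libraries.

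ATF4 is a transcription factor whose protein is made when kinases that sense amino acid shortage, heme shortage, double-stranded RNA or misfolded protein phosphorylate the initiation factor eIF2alpha. It is controlled mainly at translation, so its mRNA level does not measure its activity. Its targets include Asns and the enzymes that make serine from a glycolytic intermediate (Phgdh, Psat1 and Psph, in that order). Serine hydroxymethyltransferases (Shmt1 in the cytosol, Shmt2 in mitochondria) then split serine into glycine and a folate-bound carbon unit. Mthfd2 oxidises that unit in mitochondria, and Mat2a uses methionine to make S-adenosylmethionine (SAM), the donor of most cellular methylation. Serine-derived glycine is also a building block of glutathione.

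Promoter letters of the members were read from RefSeq windows on GRCm38.p6 (250 bases before to 50 after a start), which were found for all 10 genes. The letters TGATGNAA, the core of the composite element that ATF4 and its C/EBP partners bind, were searched on both strands. Of the 10 members only Asns held them, against 4.51% of 27025 genes with a window and 2.71% of the 8330 tested genes with one. Only exact matches inside the windows were counted. Elements farther from a start or with other letters were not sought, so their absence from the other members was not shown. The 100 bases before the Asns start are shown with these letters in capitals, because they are the only such match among the members (chr6:7693210-7693309, minus strand).

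Asns: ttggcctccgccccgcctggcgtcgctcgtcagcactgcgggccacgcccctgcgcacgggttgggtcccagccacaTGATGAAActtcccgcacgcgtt

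CCAAT, the letters of the CCAAT box (read as ATTGG on the other strand), occurred in the windows of 8 members, all but Asns and Shmt2, and in 41.1% of all genes. The palindrome TGACGTCA (2.03% of genes), CACGTG (8.09%) and the ER stress response element (0.137%) occurred in none of the 10. Among the genes tested the shares were 42.6% for CCAAT, 3.75% for TGACGTCA, 12.1% for CACGTG and 0.18% for the ER stress response element. These matches are descriptions of letters and not of binding. The ER stress response element was counted only as an exact match to its consensus. Copies that differ from the consensus, in Ddit3 or another member, were not sought, so their absence was not shown. The 100 bases before the start are shown for the 4 members called lower in both old fractions than in young and for the 2 that rose in a comparison. CCAAT or ATTGG is in capitals. Psat1 has 2 windows, of which the 1 with these letters is shown, and the 100 bases before the other start hold none. The stretches lie at chr3:98339970-98340069 (Phgdh), chr19:15925060-15925159 (Psat1), chr11:60811266-60811365 (Shmt1), chr6:83317605-83317704 (Mthfd2), chr6:72439557-72439656 (Mat2a) and chr10:127290693-127290792 (Ddit3), with Ddit3 on the plus strand and the others on the minus strand.

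Phgdh: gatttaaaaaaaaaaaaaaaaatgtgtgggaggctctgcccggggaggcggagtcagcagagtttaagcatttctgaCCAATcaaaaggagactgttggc
Psat1: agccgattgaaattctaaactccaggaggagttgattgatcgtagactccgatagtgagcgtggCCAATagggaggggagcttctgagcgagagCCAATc
Shmt1: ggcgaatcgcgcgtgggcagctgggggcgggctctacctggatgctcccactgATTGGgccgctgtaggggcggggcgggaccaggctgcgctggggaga
Mthfd2: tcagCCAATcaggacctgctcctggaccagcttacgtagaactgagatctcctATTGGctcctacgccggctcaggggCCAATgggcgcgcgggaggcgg
Mat2a: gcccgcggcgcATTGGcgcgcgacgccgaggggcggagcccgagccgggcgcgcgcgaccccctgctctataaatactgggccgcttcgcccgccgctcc
Ddit3: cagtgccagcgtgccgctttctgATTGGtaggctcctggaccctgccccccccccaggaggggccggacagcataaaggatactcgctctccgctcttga

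The values are RPKM, reads scaled to the length of the gene and to the size of the library. Reads recovered from them totalled 47.0 M to 68.8 M per library, and a member was covered by 704 to 85480 reads per library. At 704 reads counting error alone is 3.77%. The 10 muscle stem cell markers, among them Pax7 and Vcam1, were all present in every library. Between the old fractions Pax7 rose and none fell, while 1 rose and 2 fell in old GSH-high against young, and 2 rose and 3 fell in old GSH-low against young. Their summed level was 3105 to 3293 RPKM in young, 2979 to 3133 in old GSH-high and 2539 to 2706 in old GSH-low. Sdc4 had the highest level of them, with means of 1848, 1609 and 1399 RPKM in that order. Pax7 means were 7.79, 8.37 and 11.9 RPKM. The 10 tenocyte markers summed to 36.2 to 38.5, 642.5 to 812.5 and 2679 to 3069 RPKM in the same order, and all 10 rose between the old fractions, as did 9 of 10 in old GSH-high and 10 of 10 in old GSH-low against young. The 10 endothelial markers summed to 33.1 to 38.7, 69.5 to 71.0 and 19.5 to 23.7 RPKM, and 9 of 10 rose from young to old GSH-high, while 9 of 10 fell between the old fractions. Of 7 lymphocyte markers 5 were in the table, with sums of 1.03 to 1.13, 2.19 to 3.35 and 22.0 to 23.9 RPKM, and Ms4a1 had 0 reads in all young and old GSH-high libraries. Of 6 adipocyte markers 3 were in the table, with sums of 0.107 to 0.173, 48.2 to 68.9 and 1.52 to 2.30 RPKM, and each of the 3 had 0 reads in 1 young library. Macrophage markers (5 of 8 in the table) summed to 5.71 to 8.26, 30.9 to 42.3 and 36.8 to 40.2 RPKM, and all 5 rose in both age comparisons. Myofibre markers (7 of 8 in the table, 5 tested) summed to 20.2 to 20.4, 16.1 to 17.3 and 40.9 to 43.4 RPKM, and the 5 tested rose between the old fractions. Fibro-adipogenic progenitor markers summed to 317 to 439, 378 to 384 and 621 to 706 RPKM. In the age comparisons 6 and 4 of 8 rose and 1 and 2 fell, and between the old fractions 2 rose and 2 fell. Col3a1, the highest of them in young, fell in both age comparisons, with means of 320, 116 and 95.3 RPKM. Smooth muscle and pericyte markers summed to 134 to 148, 79.9 to 99.6 and 104 to 105 RPKM. The sum was lower in old cells although 6 and 5 of 7 rose in the age comparisons. Acta2, the highest of them, fell in both, with means of 133, 67.2 and 63.7 RPKM. Schwann cell markers summed to 84.1 to 96.9, 106 to 115 and 119 to 129 RPKM, and of 5 tested 3 and 4 rose. Some counted markers reached the 1 RPKM needed for testing only in the group where they are high. These include Kdr, Emcn, Egfl7 and Pi16 in old GSH-high, and Col11a1 and Ckm in old GSH-low. Others, such as C1qa, C1qb and Laptm5, reached it only in old libraries. For such genes the direction in these counts was set in part by the filter. The part of other cells in the results was not tested.

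Young cells were compared with each old fraction to ask how the cells differ with age, and the 2 age comparisons share the young libraries. In both, age goes together with the pooling of animals and with the division by GSH, and these cannot be told apart. In old GSH-low against young, age also cannot be told apart from GSH content, as young cells were nearly all GSH-high per the labels. Phgdh and Psat1 of serine synthesis, the cytosolic Shmt1 and the mitochondrial Mthfd2 were lower in both old fractions than in young cells, and the SAM synthetase Mat2a was higher. In old GSH-high against young, 4 members fell, 1 rose and 5 did not pass, where 28.8% of all 10609 genes tested were called (15.1% higher, 13.7% lower). In old GSH-low against young, 4 fell, 2 rose and 4 did not pass, where 36.8% of all genes were called (18.1% higher, 18.7% lower). In each age comparison 9 of the 10 had libraries that did not overlap, 4 higher and 5 lower in old cells. Of all genes 66.1% did not overlap in old GSH-high against young (32.4% higher, 33.7% lower) and 69.1% in old GSH-low against young (32.6% higher, 36.5% lower). The median log2 fold change of the 10 was -0.08 and -0.13, near the medians over all genes tested of 0.00 and -0.02. A gene was called at a Benjamini-Hochberg adjusted p under 0.05 in limma, and log2 fold changes are on the log2(RPKM + 1) scale.

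**Figure D1:**
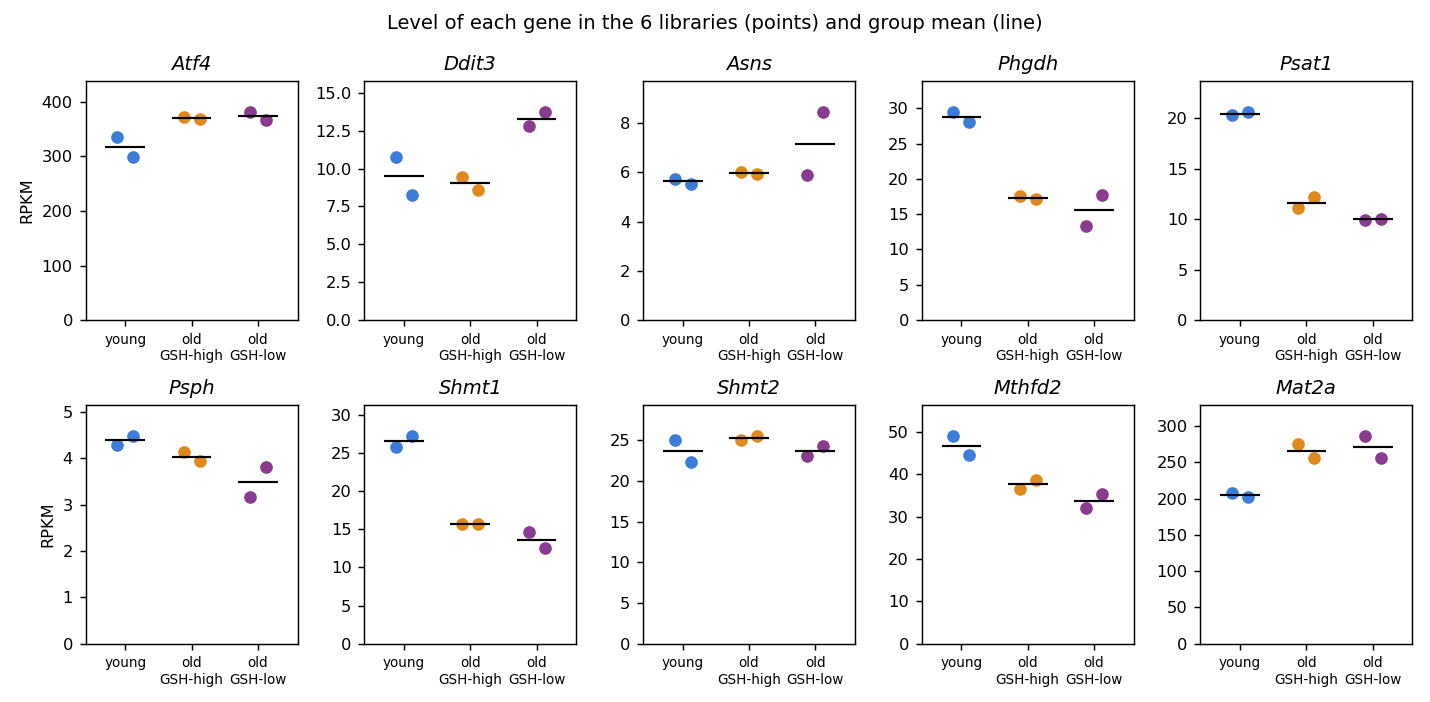
RPKM (y axis, from 0) of each of the 10 genes in the 2 libraries of each group (points), with the group mean (line). Phgdh, Psat1, Shmt1 and Mthfd2 lie highest in young, Mat2a lies lowest in young, Ddit3 is highest in old GSH-low, and Shmt2 spans 22.3 to 25.5 RPKM over all libraries.

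Phgdh, which oxidises 3-phosphoglycerate in the committed step of serine synthesis (chromosome 3, 98313170 to 98339990), measured 29.4 and 28.0 RPKM in young, 17.5 and 17.1 in old GSH-high and 13.3 and 17.7 in old GSH-low. Every old library was below both young ones, and the old fractions overlapped. The log2 fold change from young was -0.70 ± 0.12 (SE) in old GSH-high (limma, adjusted p = 0.00341) and -0.86 ± 0.12 in old GSH-low (adjusted p = 0.000849). Phgdh has 8 processed pseudogenes elsewhere in the genome with at least 95% identity over 300 bases or more, so the assignment of its reads is less certain than that of the other members.

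Psat1, the aminotransferase of the next step (chromosome 19, 15904678 to 15947337), had the largest difference from young of the 10 genes in both old fractions. It measured 20.3 and 20.6 RPKM in young, 11.1 and 12.2 in old GSH-high and 9.94 and 10.1 in old GSH-low. The 3 groups did not overlap, with the order young, old GSH-high, old GSH-low. Mean levels in the old fractions were 0.569 and 0.488 times that of young, with log2 fold changes of -0.77 ± 0.08 (limma, adjusted p = 0.000302) and -0.97 ± 0.08 (adjusted p = 5.81e-05). Between the old fractions the log2 difference was -0.20 with a 95% interval of -0.39 to -0.01 for this gene alone, and it did not pass over all genes (adjusted p = 0.246).

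Psph, the phosphatase that releases serine in the last step (chromosome 5, 129765558 to 129787449), had the lowest level of the 10 genes per length. It measured 4.28 and 4.48 RPKM in young, 4.14 and 3.93 in old GSH-high and 3.17 and 3.82 in old GSH-low. All old libraries were below both young ones, but by less than for Phgdh and Psat1. The log2 fold changes from young, -0.10 (95% interval -0.33 to 0.13) and -0.26 (-0.49 to -0.03), did not pass (limma, adjusted p = 0.509 and 0.0703). Of its exonic bases 452 (10.4%) are shared with a Cct6a transcript on the opposite strand, and no source used here gives the strand of the libraries. Smaller overlaps of that kind concern Shmt1 (184 bases, with Smcr8), Ddit3 (68, with Mars, and 13, with Gm4189) and Shmt2 (32, with Ndufa4l2). Ddit3 also shares 105 bases (6.1%) with a second annotated gene of the same name on its own strand.

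Relative to Psph in the same library, the first enzymes of the path were lower in old cells. The Phgdh level was 6.87 and 6.26 times the Psph level in young, 4.24 and 4.36 times in old GSH-high and 4.20 and 4.64 times in old GSH-low. For Psat1 the ratio was 4.75 and 4.60 in young, 2.68 and 3.11 in old GSH-high and 3.14 and 2.63 in old GSH-low. Both ratios separated the young libraries from all 4 old ones and overlapped between the old fractions. These within-library ratios were not tested.

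**Figure D2:**
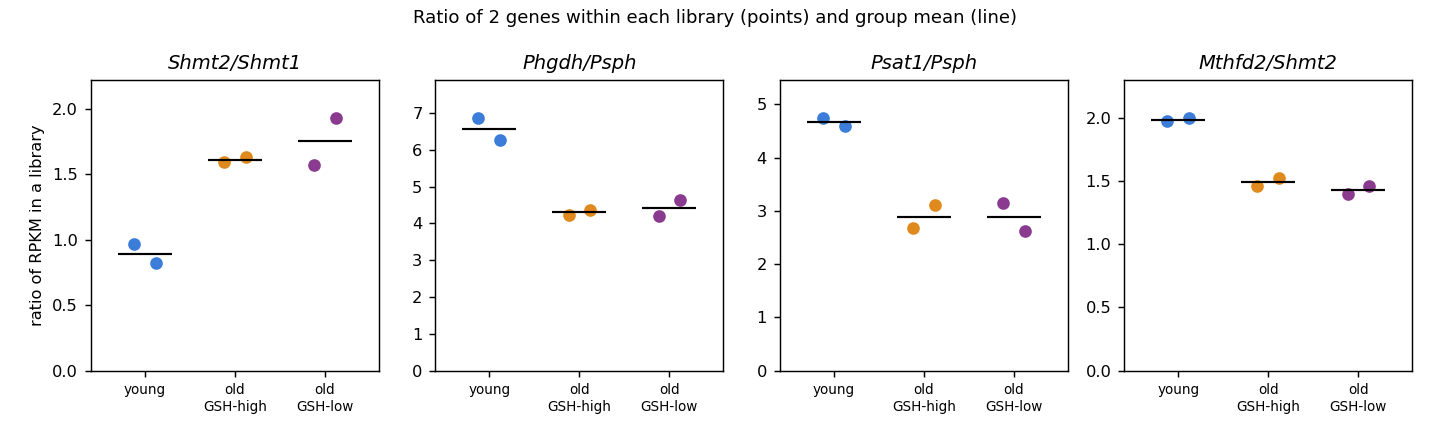
Ratio of the RPKM of 2 genes within a library (y axis, from 0, no unit), for the 2 libraries of each group (points) and the group mean (line). Shmt2/Shmt1 is under 1 in both young libraries and at least 1.57 in all old libraries, while Phgdh/Psph, Psat1/Psph and Mthfd2/Shmt2 are highest in young.

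Of the serine hydroxymethyltransferases, the cytosolic one fell in both old fractions and the mitochondrial one did not pass. Shmt1 (chromosome 11, 60788104 to 60811718) measured 25.8 and 27.2 RPKM in young, 15.7 and 15.7 in old GSH-high and 14.6 and 12.5 in old GSH-low. The groups did not overlap, and the log2 fold changes from young were -0.72 ± 0.09 (limma, adjusted p = 0.000689) and -0.92 ± 0.09 (adjusted p = 0.000136). Shmt2 (chromosome 10, 127517123 to 127522444), the mitochondrial enzyme, measured 25.0 and 22.3 RPKM in young, 25.0 and 25.5 in old GSH-high and 23.0 and 24.3 in old GSH-low. Its libraries lay within a range of 1.14-fold, the narrowest of the 10 genes. The log2 fold changes of Shmt2 from young were 0.09 (95% interval -0.11 to 0.29) in old GSH-high and 0.00 (-0.20 to 0.20) in old GSH-low.

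Per length, the Shmt2 level was 0.968 and 0.820 times that of Shmt1 in young. In old GSH-high it was 1.59 and 1.63 times, and in old GSH-low 1.57 and 1.93 times. Shmt1 thus had the higher level per length in young libraries, though only slightly in young replicate 1, and Shmt2 in old ones. The 95% intervals of the log2 fold changes from young of Shmt1 (-0.93 to -0.51 and -1.13 to -0.71) lie below those of Shmt2, and the difference between the genes was not tested.

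Mthfd2, the mitochondrial dehydrogenase and cyclohydrolase that acts on the unit released by Shmt2 (chromosome 6, 83305691 to 83325908), measured 49.1 and 44.5 RPKM in young, 36.5 and 38.7 in old GSH-high and 32.1 and 35.5 in old GSH-low. The groups did not overlap, in the order young, old GSH-high, old GSH-low. The log2 fold change from young was -0.31 ± 0.09 in old GSH-high (limma, adjusted p = 0.0351) and -0.46 ± 0.09 in old GSH-low (adjusted p = 0.00502). The call in old GSH-high ended without young replicate 1 (adjusted p = 0.109) and without any 1 old library (0.0527 to 0.224), and under library size scaling (0.0747). The call in old GSH-low ended without old GSH-low replicate 1 (0.0594). The Mthfd2 level per length was 1.97 and 2.00 times that of Shmt2 in young and 1.40 to 1.52 times in the old libraries.

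Mat2a, the catalytic subunit of the SAM synthetase of most tissues (chromosome 6, 72432799 to 72439558), was the one member called higher in both old fractions. It measured 207 and 202 RPKM in young, 275 and 256 in old GSH-high and 287 and 256 in old GSH-low. Every old library was above both young ones, and the old fractions overlapped. Means were 1.30 and 1.32 times that of young, with log2 fold changes of 0.37 ± 0.09 (limma, adjusted p = 0.0167) and 0.40 ± 0.09 (adjusted p = 0.00982). The call in old GSH-high ended without either of its libraries (adjusted p = 0.157 without replicate 1 and 0.0616 without replicate 2), and that in old GSH-low without its replicate 1 (0.111). Mat2a shares 508 exonic bases (11.3%) with Particl, a transcript of the opposite strand, and has 1 processed pseudogene elsewhere.

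Among the stress genes, Atf4 (chromosome 15, 80255184 to 80257541) was the most abundant of the 10 per length, above 99.1% of the genes tested. It measured 336 and 298 RPKM in young, 373 and 369 in old GSH-high and 381 and 367 in old GSH-low. All old libraries were above both young ones, and the old fractions overlapped. The log2 fold changes from young, 0.23 ± 0.09 and 0.24 ± 0.09, did not pass (limma, adjusted p = 0.0983 and 0.0730). They passed without young replicate 1, the higher young library (0.31, adjusted p = 0.0287, and 0.33, adjusted p = 0.0188), and under library size scaling (adjusted p = 0.0359 and 0.0228). In old GSH-low the difference also passed with limma-voom on the recovered reads (adjusted p = 0.0476).

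Asns, which makes asparagine and whose promoter holds the TGATGNAA letters shown above (chromosome 6, 7675169 to 7693254), measured 5.75 and 5.53 RPKM in young, 6.00 and 5.93 in old GSH-high and 5.89 and 8.44 in old GSH-low. Only old GSH-low replicate 2 stood away from the other libraries. The log2 fold changes from young were 0.07 (95% interval -0.24 to 0.38) and 0.28 (-0.03 to 0.59), and neither passed (limma, adjusted p = 0.736 and 0.143). With old GSH-low replicate 2 as the lone library of its group the second was 0.51 and passed (adjusted p = 0.0194).

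**Figure D3:**
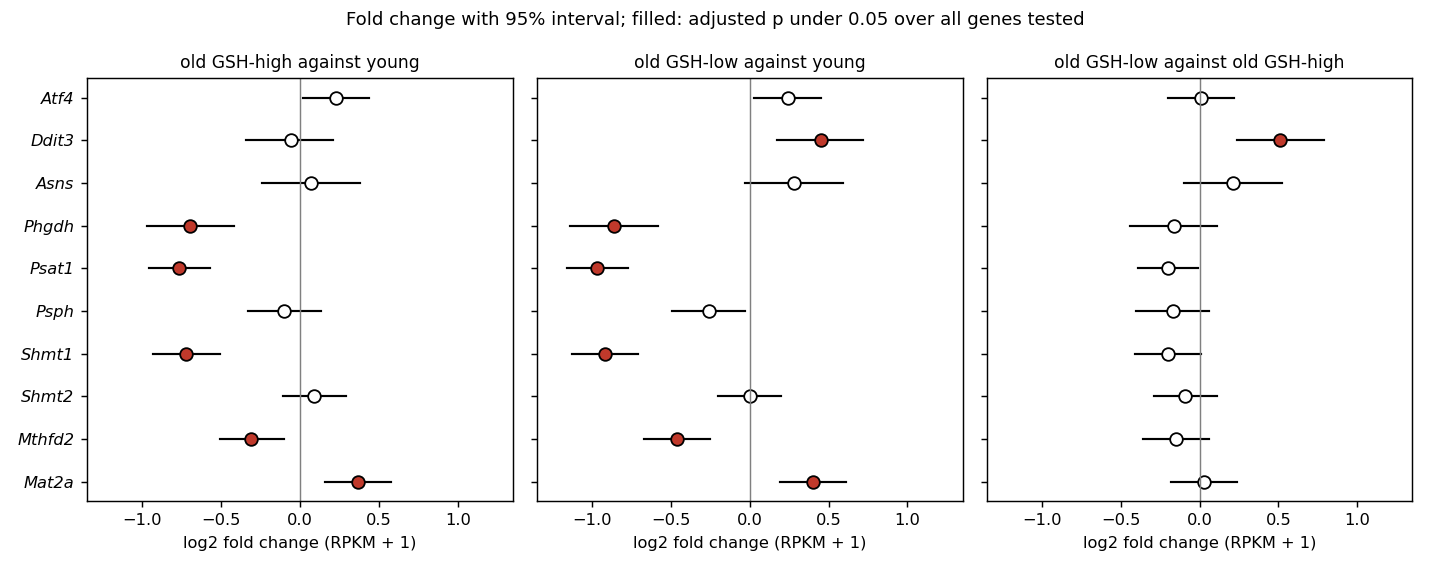
Log2 fold change (x axis, RPKM + 1) of the 10 genes in the 3 comparisons with its 95% interval for each gene alone (bars); filled points have an adjusted p under 0.05 over all genes tested. Psat1, Shmt1, Phgdh and Mthfd2 are filled and lower in both age comparisons, and Ddit3 is the only filled gene between the old fractions.

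The comparison of the old fractions with each other asks what goes with glutathione content at a single age. Of the 10 members 1 rose, none fell and 9 did not pass, where 5.38% of all genes were called (3.69% higher, 1.69% lower), and 2 members had an unadjusted p under 0.05 (limma). The member that rose was Ddit3, which encodes CHOP, a transcription factor induced through ATF4 under endoplasmic reticulum stress and amino acid shortage. Of the remaining members, all 6 enzymes of serine synthesis and folate carbon transfer had a lower mean in old GSH-low, with log2 fold changes of -0.20 to -0.09, and none of these passed. The levels of 6 members did not overlap between the fractions, 1 higher and 5 lower, where 55.5% of all genes did not overlap (25.7% higher, 29.8% lower).

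Ddit3 (chromosome 10, 127290774 to 127296288) measured 10.8 and 8.28 RPKM in young, 9.43 and 8.59 in old GSH-high, and in old GSH-low 12.8 and 13.7. Both old GSH-low libraries were above the other 4, and young and old GSH-high overlapped. The log2 fold change in old GSH-low was 0.51 ± 0.12 against old GSH-high (limma, adjusted p = 0.0464) and 0.45 ± 0.12 against young (adjusted p = 0.0196). The first call ended without any 1 of the 4 old libraries (adjusted p = 0.124 to 0.284), with a pseudocount of 0.1 (0.0558) and with a stricter filter of 5 RPKM (0.0501). The second ended without young replicate 2 (log2 fold change 0.27, adjusted p = 0.0566), without old GSH-low replicate 1 (0.0656) or without old GSH-low replicate 2 (0.101).

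The order of the groups differed between Ddit3 and Atf4. The Ddit3 level per length was 0.0321 and 0.0278 of the Atf4 level in young, 0.0253 and 0.0233 in old GSH-high and 0.0336 and 0.0374 in old GSH-low. The ratio separated the old fractions, with young between them. The 12 immediate early genes, which respond to stimuli and to tissue dissociation, summed to 4673 to 4809 RPKM in old GSH-low, 3441 to 3782 in old GSH-high and 5773 to 6161 in young, and 8 of the 12 rose between the old fractions. Their part in the Ddit3 difference was not tested.

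The sensors upstream of ATF4 were read from a list of 9 genes, all tested. None passed between the old fractions. In each age comparison 2 rose and 1 fell, where 28.8% (old GSH-high) and 36.8% (old GSH-low) of all genes tested were called. Impact, an inhibitor of the amino acid sensing kinase GCN2, measured 5.02 and 5.10 RPKM in young, 9.15 and 9.35 in old GSH-high and 11.1 and 9.20 in old GSH-low (log2 fold changes 0.76 and 0.88, limma, adjusted p = 0.000774 and 0.000271). Eif2ak2, the interferon-induced kinase PKR, rose by 0.51 and 0.35 from a mean of 1.05 RPKM in young. Ppp1r15a, the inducible subunit of the phosphatase that restores eIF2alpha, fell by 0.35 in old GSH-high (adjusted p = 0.0232), and Eif2ak1, the heme-regulated kinase, fell by 0.30 in old GSH-low (adjusted p = 0.0256). The calls of Ppp1r15a and Eif2ak1 ended with 5 of the 6 libraries left out in turn, and those of Eif2ak2 with 1 (old GSH-high) and 3 (old GSH-low). The kinases Eif2ak3 (PERK) and Eif2ak4 (GCN2) did not pass in any comparison.

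Other ATF4 targets and partners did not move one way. Of 32 listed genes 31 were in the table and 29 were tested. In old GSH-high against young 3 rose and 5 fell, and in old GSH-low against young 8 rose and 4 fell. Between the old fractions 2 rose. Over all genes tested 28.8%, 36.8% and 5.38% were called in that order. The medians were 0.05, -0.02 and -0.01, beside 0.00, -0.02 and -0.01 over all genes tested. Of the 26 listed genes with a RefSeq window, 11 held TGATGNAA, against 4.51% of all genes and 2.71% of the genes tested. The list was made up of ATF4 targets and partners, so its higher share is a description and no test. The element is shown in capitals for 5 of these that were called in a comparison, with 20 bases on each side, on the strand of the gene. Capitals mark the letters or their reverse complement, and Slc7a11 holds 2 matches.

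Atf3: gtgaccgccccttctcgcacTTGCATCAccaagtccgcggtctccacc
Chac1: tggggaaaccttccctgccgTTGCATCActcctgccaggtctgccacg
Nupr1: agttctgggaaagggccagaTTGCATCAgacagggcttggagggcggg
Slc7a11: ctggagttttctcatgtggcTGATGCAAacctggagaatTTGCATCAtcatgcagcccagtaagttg
Vldlr: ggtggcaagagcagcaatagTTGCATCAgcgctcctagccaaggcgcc

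These 5 genes share the letters and differed in direction. The stretches are chr1:191183416-191183463, chr2:119351029-119351076, chr7:126625553-126625600, chr3:50443633-50443699 and chr19:27216800-27216847. Atf3, a stress-induced partner of the ATF family, measured 200 and 172 RPKM in young, 111 and 106 in old GSH-high and 174 and 160 in old GSH-low. It fell by 0.77 in old GSH-high against young (limma, adjusted p = 0.000648) and rose by 0.62 in old GSH-low against old GSH-high (adjusted p = 0.00655). The latter call ended without old GSH-high replicate 2 or without old GSH-low replicate 1. Atf3 is also counted among the immediate early genes above, and their part in its differences was not tested. Ddit4, an inhibitor of mTORC1 signalling, was the other target called between the fractions, at 8.81 and 7.02 RPKM in old GSH-low against 5.31 and 5.30 (log2 fold change 0.49, adjusted p = 0.0354). That call ended with limma-voom and without any of 3 old libraries. Ddit4 also rose by 0.69 in old GSH-low against young (limma, adjusted p = 0.00157), a call that held under all 15 alternatives.

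Chac1, which degrades glutathione, measured 15.8 and 11.5 RPKM in young, 17.1 and 15.7 in old GSH-high and 18.3 and 18.2 in old GSH-low. The difference between the old fractions did not pass (log2 fold change 0.15, limma, adjusted p = 0.602). Against young, Chac1 rose by 0.41 in old GSH-low (limma, adjusted p = 0.0394). That call ended with 5 of the 6 libraries left out in turn. Nupr1, a small stress-induced chromatin protein, rose by 0.69 in old GSH-low against young. Cth, which makes cysteine from cystathionine, rose by 0.53 and 0.50 in the age comparisons, and Gdf15, a secreted stress cytokine, fell by 0.61 and 0.46. Slc7a11, the cystine importer, fell by 0.41 and 0.73 in the age comparisons, and Vldlr, a lipoprotein receptor, by 0.46 and 0.53. Slc7a11 measured 1.36 and 1.18 RPKM in young and 0.353 to 0.726 in old libraries. It thus passed the filter of 1 RPKM only through the group where it is high. Stretches of 373 bases at 95% identity or more in Tuba1a, Tuba1b and Tuba1c make its reads uncertain. The amino acid transporters Slc3a2 and Slc1a5 rose in both age comparisons. On the log2 scale Slc3a2 rose by 0.55 and 0.41 and Slc1a5 by 0.42 and 0.62, and the arginine transporter Slc7a1 fell by 0.38 and 0.48. With single libraries left out, Cth lost its calls with 4 and 3, Slc7a1 with 3 and 1, Slc7a11 its call in old GSH-high with 2, Slc1a5 its call in old GSH-high with 1, and Slc3a2 and Gdf15 theirs in old GSH-low with 1.

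**Figure D4:**
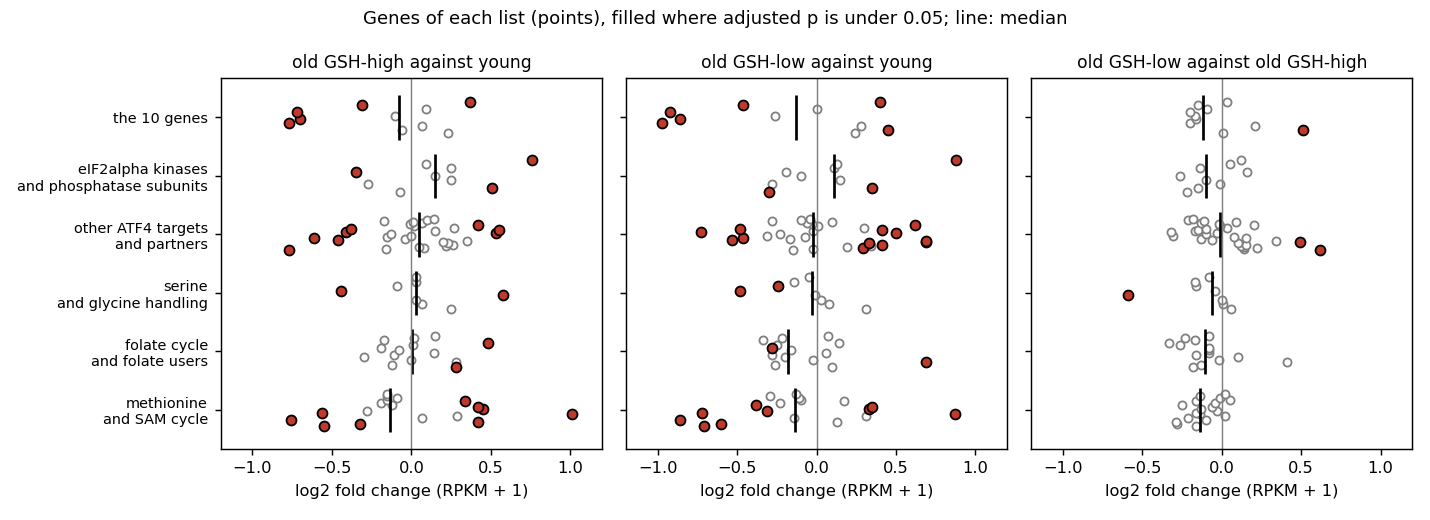
Log2 fold change (x axis, RPKM + 1) of every tested gene in the 10 members and the 5 pathway lists (rows), in the 3 comparisons; filled points have an adjusted p under 0.05 and the vertical line is the list's median. Called genes lie on both sides of 0 among the 10 members, the eIF2alpha genes, the other ATF4 targets and the methionine and SAM genes in both age comparisons, and few are called between the old fractions.

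Around the serine step, 13 genes of serine and glycine handling were listed, of which 8 were tested. Gcsh, the lipoate-bearing H protein of the glycine cleavage system, fell in both age comparisons, from 28.8 and 25.2 RPKM in young to 18.7 and 20.6 in old GSH-high and 18.8 and 19.4 in old GSH-low (log2 fold changes -0.44 and -0.48, limma, adjusted p = 0.00918 and 0.00496). The Gcsh call in old GSH-high ended without its replicate 1 (0.0937). Dld, the dehydrogenase of that system, fell by 0.24 in old GSH-low against young, a call that ended with 5 of the 6 libraries left out in turn. Sdsl, a serine dehydratase-like enzyme, was highest in old GSH-high, at 2.64 and 2.83 RPKM against 1.41 and 1.59 in young and 1.39 and 1.58 in old GSH-low. It rose by 0.58 against young (adjusted p = 0.00306) and fell by 0.59 in old GSH-low against old GSH-high (adjusted p = 0.00901), the latter not without old GSH-high replicate 2 or old GSH-low replicate 1.

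Of 20 folate cycle genes 14 were tested and most did not pass. In old GSH-high against young 2 rose, Aldh1l1 (0.48) and Mthfd1 (0.28, limma, adjusted p = 0.0496), and none fell. Over all genes tested 28.8% were called there. Aldh1l1 measured 0.619 and 0.987 RPKM in young, 1.62 and 1.37 in old GSH-high and 1.16 and 0.814 in old GSH-low. It passed the filter of 1 RPKM in 2 libraries only through old GSH-high, the group where it is high. Its direction was thus set in part by the filter. In old GSH-low against young Slc19a1, the reduced folate carrier, fell by 0.28. None passed between the old fractions. The calls of Mthfd1 and Slc19a1 ended with 5 of the 6 libraries left out in turn and that of Aldh1l1 with 3. Mthfd2l and Mthfd1l, mitochondrial relatives of Mthfd2 and Mthfd1, did not pass in any comparison.

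The methionine and SAM cycle, in which Mat2a acts, had called genes in both directions. Of 22 listed genes 18 were tested. In old GSH-high against young 5 rose and 4 fell, where 28.8% of all genes tested were called. In old GSH-low against young 3 rose and 6 fell, where 36.8% were called. None passed between the old fractions. Mat2b, the regulatory subunit that binds the Mat2a protein, moved opposite to Mat2a, from 7.53 and 7.23 RPKM in young to 4.78 and 4.66 in old GSH-high and 4.01 and 4.26 in old GSH-low (log2 fold changes -0.55 and -0.71, limma, adjusted p = 0.00192 and 0.000371). Mettl16, a methyltransferase known to act on Mat2a mRNA, rose by 0.45 and 0.33. Amd1, which commits SAM to polyamine synthesis, rose by 0.42 and 0.35, and near-identical copies such as Amd2 make its reads uncertain. In old GSH-high Mtap, which recycles the sulphur-bearing by-product of polyamine synthesis, rose by 0.34, and Mtrr, which reactivates methionine synthase, by 0.42. Nnmt, which methylates nicotinamide with SAM, fell by 0.56 and 0.72. In old GSH-low Srm, spermidine synthase, fell by 0.38 and Pemt, which methylates phosphatidylethanolamine, by 0.31. With single libraries left out, the calls ended for Amd1 with 3 and 4, Mettl16 with 1 and 3, Mtap with 2, Mtrr with 3, Nnmt in old GSH-high with 1, Srm with 1 and Pemt with all 6.

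Enzymes that handle homocysteine differed as well. Ahcy, which hydrolyses S-adenosylhomocysteine, measured 27.1 and 26.3 RPKM in young, 16.1 and 14.6 in old GSH-high and 14.7 and 13.9 in old GSH-low (log2 fold changes -0.76 and -0.86, limma, adjusted p = 0.000326 and 0.000122). It too has near-identical copies elsewhere in the genome. Mtr, methionine synthase, fell by 0.32 and 0.60, the first a call that ended with each of the 6 libraries left out. Cbs, which joins homocysteine to serine on the way to cysteine, measured 1.24 and 1.54 RPKM in young, 3.66 and 3.96 in old GSH-high and 3.62 and 3.12 in old GSH-low (log2 fold changes 1.01 and 0.87, adjusted p = 0.000261 and 0.000413). All 4 old libraries were above both young ones for Cbs and below them for Ahcy, Mtr and Mat2b.

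Genes whose pattern was most like that of Atf4 were sought by Pearson r over the 6 libraries, among 4466 genes whose highest group mean was at least 10 RPKM. The 5 highest were Rbm27 (r = 0.998), Rpp25l (0.995), Fth1 (0.985), Sgf29 (0.981) and Arpc3 (0.980). Fth1, the ferritin heavy chain, ranged from 832 RPKM in young replicate 2 to 1252 in old GSH-high replicate 1. In all 5, as in Atf4, young replicate 2 was the lowest library. The libraries share their depth and scaling in these correlations, which are given as a description. In bulk libraries, fewer cells of a type and less RNA per cell cannot be told apart in any of these differences.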

How the data were processed

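Libraries were oligo(dT)-primed and single-end, per the labels' protocols. Tools named in the submitters' processing notes are STAR, Trim Galore, edgeR and Subread's featureCounts, with build GRCm38 (mm10). Tool versions and strand are not given in the sources used here. The deposited values are RPKM. Whole reads could be recovered from them for 12066 of 12067 genes (tolerance 0.02 reads and 3e-07 of the value), and 230 values were zeros replaced by 0.5 times the gene's lowest other value, none of them in a member.

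Genes with at least 1 RPKM in 2 or more libraries were kept (10609), among them all 10 members. The limma-trend test (limma 3.58.1, R 4.3.3) was run on log2(RPKM + 1) with 1 mean for each of the 3 groups, which leaves 3 residual degrees of freedom, and p-values were adjusted by Benjamini-Hochberg over all genes. The added 1 shrinks fold changes of low genes. Members and lists were chosen with earlier results of these data known. All members are named, and of the other lists up to 4 called genes per comparison in order of p and any in a count of 5 or fewer. Genes named beyond that (Nupr1, Chac1, Pemt, Srm, Eif2ak3, Eif2ak4, Mthfd2l, Mthfd1l) were chosen after their values were seen. The result of 1 folate gene is not reported here. Positions are from GENCODE M21. Copies were sought with blastn at 95% identity over 300 bases. The fit was tested on simulated data. Alternatives were other filters, a pseudocount of 0.1, other scalings, limma-voom on recovered reads, the 4 libraries compared, a replicate block and each library left out. Python 3.11.15 was used for read recovery and figures.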

Additional observations from a re-analysis of the deposited data

How the results depend on the processing

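The calls of Psat1, Phgdh and Shmt1 in both age comparisons held under all 15 alternatives. Over all members, 30 results were recomputed 447 times, of which 407 kept direction and side of the threshold, 25 lost a call, 6 gained one and 9 changed sign, none of the 9 in a called result. With 1 library left out, log2 fold changes between the old fractions were -0.02 to 0.04 for Atf4, -0.36 to 0.03 for Phgdh, -0.02 to 0.44 for Asns and -0.05 to 0.11 for Mat2a. Ddit3 in old GSH-high against young was -0.24 to 0.11. Shmt2 in old GSH-low against young was -0.08 to 0.08, and 0.00 with median-of-ratios scaling, on the negative side.

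Between the old fractions the member count of 1 was 0 with a filter of 5 RPKM, with a pseudocount of 0.1 and with the replicate block, and 0 to 1 with a library left out. The count of all genes, 571, was 274 with the filter of 5 RPKM, 876 in the 4 libraries compared alone, and 247 to 864 with a library left out. In old GSH-high against young the member count of 5 was 3 to 5 with a library left out, and the count of all genes, 3051, was 1474 to 3754. In old GSH-low against young the member count of 6 was 4 to 7, and the count of all genes, 3901, was 1917 to 4239. A library left out leaves its group with 1 library, assumed to vary like the others.

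The replicate numbers were not taken as pairs. Differences between replicates 1 and 2 correlated at 0.069 between the old fractions and at -0.142 and -0.263 between young and old. With the replicate block in the 4 libraries compared, 1021 genes were called between the old fractions and 3 members in old GSH-high against young, where Mthfd2 and Mat2a lost their calls (adjusted p = 0.0914 and 0.0519). Mat2a also lost it in old GSH-low against young (0.0561). With the block over all libraries Ddit3 between the fractions (0.0620) and Mthfd2 in old GSH-high (0.0698) lost theirs. Scaling by library size moved the median gene by 0.052 and 0.060 in the age comparisons. The causes of these shifts were not tested. With 2 libraries a group, small differences cannot be resolved.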
